A study of Mus musculus with 677 samples.

Results

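Mature absorptive enterocytes were the cells whose name in the deposited table ended in exactly "Enterocyte", an annotation made by the authors, and 58 of the 677 cells of the series carried it. RNA was sequenced from individual cells of the intestinal epithelium of C57BL/6 mice, taken from wild-type (WT) animals and from Atg16l2-/- animals (KO), which lack a homologue of the autophagy gene Atg16l1. Libraries were made with SMART-Seq2, a plate method that sequences full-length cDNA of 1 cell per library, and the labels also name a 10X Genomics kit. Each cell name held M1 or M2, read here as the number of the animal in its genotype, and a run, 1 or 2. The labels do not say whether a number that recurs in both runs marks 1 animal, and it was taken to do so here. Age, sex, intestinal segment and the way the knockout was made are not given in the sources used here. WT M1 gave 18 Enterocyte cells (7 in run 1 and 11 in run 2), WT M2 gave 11 (6 and 5), KO M1 gave 12 (4 and 8) and KO M2 gave 17 (5 and 12). The unit of comparison was the animal, with 2 animals per genotype, so p-values measure only the spread between these animals. Where 4 values are given in a row they belong to the 4 animals, WT before KO and M1 before M2.

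Enterocytes are the absorptive cells of the intestinal lining. They leave the crypt as dividing progenitors, climb the villus while they differentiate, and are shed at its tip, and along that path they acquire a brush border of microvilli that carries digestive enzymes and nutrient transporters. They also repackage dietary fat into chylomicrons with the apolipoproteins ApoB, ApoA-I and ApoA-IV, metabolise drugs and food compounds, and secrete the antimicrobial lectins of the Reg3 family.

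The promoters of 5 genes that carry the results are shown because the comparisons turn on these genes: Apoa1 and Apoa4, which encode chylomicron apolipoproteins, Fabp1, which encodes the liver-type fatty acid binding protein, and Reg1 and Reg3g, which encode secreted lectins of the Reg family. Each line gives the 200 bases before the transcription start, 5′ to 3′ on the gene's strand, from the RefSeq promoter table of build GRCm38.p6, and capitals mark matches on either strand to 4 motifs. The motifs were a TATA box (TATAAA), a half-site of HNF1 (GTTAAT), a site of HNF4 (CAAAGTNCA) and a site of CDX factors (TTTATNG). HNF1, HNF4 and CDX factors are known as transcription factors of the intestinal epithelium.
Apoa1 (chr9:46228430-46228629, plus strand): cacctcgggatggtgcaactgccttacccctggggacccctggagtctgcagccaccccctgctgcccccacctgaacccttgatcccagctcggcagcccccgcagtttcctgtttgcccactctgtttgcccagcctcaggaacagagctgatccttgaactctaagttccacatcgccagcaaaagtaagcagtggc
Apoa4 (chr9:46240644-46240843, plus strand): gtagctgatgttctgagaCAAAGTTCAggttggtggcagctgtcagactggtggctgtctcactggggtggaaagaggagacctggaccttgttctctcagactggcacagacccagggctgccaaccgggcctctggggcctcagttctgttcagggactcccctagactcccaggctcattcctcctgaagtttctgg
Fabp1 (chr6:71199679-71199878, plus strand): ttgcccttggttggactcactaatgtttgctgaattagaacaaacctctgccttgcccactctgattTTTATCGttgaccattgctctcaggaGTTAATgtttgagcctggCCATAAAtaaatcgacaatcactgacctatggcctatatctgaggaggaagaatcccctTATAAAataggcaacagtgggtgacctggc
Reg1 (chr6:78425783-78425982, plus strand): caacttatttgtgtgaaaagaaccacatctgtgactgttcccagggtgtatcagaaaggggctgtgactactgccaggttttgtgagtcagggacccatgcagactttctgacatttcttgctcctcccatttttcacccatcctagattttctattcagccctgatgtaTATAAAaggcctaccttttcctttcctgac
Reg3g (chr6:78468875-78469074, minus strand): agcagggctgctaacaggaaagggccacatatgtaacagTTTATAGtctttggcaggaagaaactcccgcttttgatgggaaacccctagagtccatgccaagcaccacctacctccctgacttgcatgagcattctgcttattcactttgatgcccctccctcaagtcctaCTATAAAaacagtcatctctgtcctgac
No match was found in the Apoa1 window. Apoa4 had an HNF4 match at chr9:46240662-46240670. Fabp1 had a TATA box 30 to 25 bases before the start, an HNF1 half-site at chr6:71199772-71199777 further upstream, and CDX matches at chr6:71199746-71199752 and, on the opposite strand, 89 to 83 bases before the start. Reg1 and Reg3g each had a TATA box, at 30 to 25 and 27 to 22 bases before the start, and in Reg3g it overlapped a CDX match on the opposite strand at 28 to 22. A second CDX match of Reg3g, at chr6:78469029-78469035, overlapped a TATA match on the opposite strand. A match is a description of these letters, not a binding site.

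Because TPM, the unit of the deposited values, gives each transcript as a share of a fixed total, the sequencing depth of each cell is unknown. Enterocyte cells had 3662 to 10098 genes above 0 TPM, with a median of 5850.5, against 6079 in Enterocyte.prog.late cells, and the medians were 6207.5 in run 1, 5728 in run 2, 5747 in WT and 5866 in KO. No pair of Enterocyte cells held identical values (0 pairs). Well numbers recurred between the runs, with the same animal number in 50.2% of the shared wells, so a shared well was not taken as a shared cell. The ribosomal RNA gene Rn45s took 14.1% of TPM in Enterocyte cells, and per animal its means were 134712, 107771, 119522 and 183119 TPM.

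The 4 markers of the annotation were checked first. Apoa1 averaged 8338.6, 10486.8, 4303.3 and 5855.8 TPM in Enterocyte cells, against 165.1, 176.2, 273.96 and 445.0 TPM in the late enterocyte progenitors (Enterocyte.prog.late, 75 cells) of the same animals. Apoc3, which encodes the lipase inhibitor ApoC-III, averaged 1007.4, 2541.1, 462.7 and 445.0 TPM, against 60.9, 99.4, 100.4 and 48.0. Both apolipoproteins were above the progenitors in every animal, without overlap. Fabp1 averaged 2197.6, 5915.6, 7340.6 and 4822.9 TPM, against 448.0, 1102.3, 1009.8 and 1464.7, and again no Enterocyte value fell within the progenitor range. Reg3g averaged 10138.2, 12092.8, 4502.0 and 5847.4 TPM, against 8891.0, 6019.2, 5644.9 and 6931.0. Reg3g therefore overlapped with the progenitors, at a log2 difference of 0.16 ± 0.61 (SD over 4 animals). Reg3g was also high in early enterocyte progenitors (Enterocyte.prog.early), at 6119, 1431, 2846 and 2715 TPM, so it did not set mature cells apart.

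**Figure D1:**
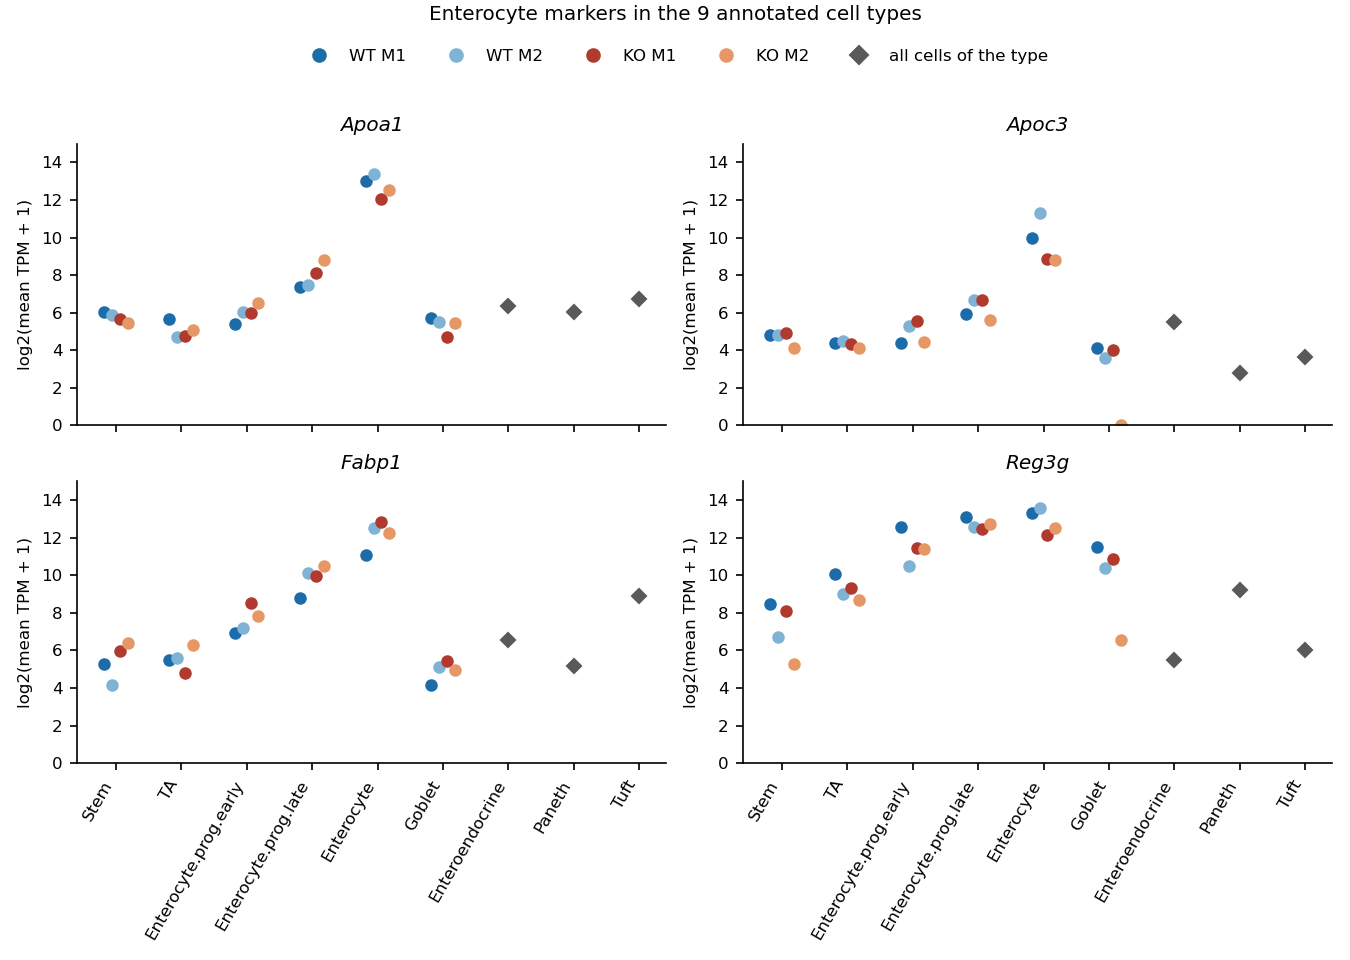
Level of Apoa1, Apoc3, Reg3g and Fabp1, as log2 of the mean TPM plus 1, in the 9 annotated cell types; each point is the mean over the cells of 1 animal, or over all cells for Enteroendocrine, Paneth and Tuft. Apoa1, Apoc3 and Fabp1 are highest in Enterocyte, whereas the Reg3g points of Enterocyte and Enterocyte.prog.late overlap.

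Markers of other cell types were low in most Enterocyte cells but not in all of them. The summed level of 7 goblet markers averaged 41.4, 58.9, 48.4 and 2244.0 TPM, and that of 7 Paneth markers 154.8, 100.1, 3910.3 and 551.8 TPM. The high means came from few cells: 1 cell summed above 1000 TPM for the goblet list and 5 cells for the Paneth list. Stem markers summed to 23.4, 14.1, 367.3 and 46.8 TPM, with 1 cell above 1000. The 6 T cell markers in the table were each above 0 in some cell and summed to 0.9, 1.6, 21.7 and 7.7 TPM, with a highest cell of 245.2. The fibroblast and endothelial markers Col1a1, Col1a2, Col3a1, Dcn and Cdh5, and the tuft markers Gfi1b, Il25, Lrmp and Avil, were at 0 in all 58 cells. Of the tuft list, 3 of 7 markers were above 0: Cd24a in 21 cells, at up to 85.2 TPM, Dclk1 in 2 and Trpm5 in 1. Of the list of stroma, endothelium and red cells, 3 of 8 were above 0, among them the haemoglobin gene Hba-a1 in 25 cells, at up to 206.1 TPM.

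Compared with late progenitors, Enterocyte cells carried more mRNA of brush border enzymes, transporters and lipid carriers and less of cell cycle genes. Of the 6071 genes whose mean over these 2 types reached 10 TPM, 2.08% were at least 2-fold higher in each of the 4 animals and 60 genes (0.988%) at least 2-fold lower. The authors' annotation may rest on these same values, so this comparison is a description with no test. Just inside the threshold stood Mttp, with a smallest within-animal log2 difference of 1.004, and just outside it Cyp4f14, with 0.99. The share of genes in both directions together was 3.06% and came to 5.15% without KO M1 and 4.98% without KO M2.

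The gene furthest from the progenitors in every animal was Cyp2b10, a cytochrome P450 induced by drugs. It averaged 196.4, 183.2, 87.4 and 91.99 TPM in Enterocyte cells, against 0, 0, 0 and 1.5 TPM in Enterocyte.prog.late, and its log2 difference was 6.71 ± 1.12 (SD over 4 animals, as for all such values here). Lct, which encodes lactase, averaged 115.5, 174.9, 98.8 and 98.1 TPM, against 0.1, 3.4, 5.1 and 6.1, and its difference was 4.97 ± 1.34. Both genes were thus near 0 in late progenitors of every animal. Apoa1 differed by 4.80 ± 1.12.

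Transporters formed a large share of the remaining genes at the top of that order. Slc2a2, the basolateral glucose transporter GLUT2, was higher by 5.12 ± 1.47 log2 units, from 3.02 to 89.2 TPM. Slc15a1, the peptide transporter PepT1, was higher by 4.34 ± 0.60, Slc6a19, the brush border carrier of neutral amino acids, by 4.23 ± 1.19, and Slc5a4a, a member of the sodium-glucose cotransporter family, by 4.18 ± 0.91. Among enzymes, Ggt1, the gamma-glutamyl transferase, differed by 4.94 ± 2.01, Xpnpep2, a membrane aminopeptidase, by 3.80 ± 0.80, and Akr1b7, an aldo-keto reductase, by 3.08 ± 0.23. Dnase1, a secreted nuclease, differed by 5.61 ± 1.91, Lipa, the lysosomal acid lipase, by 3.57 ± 0.48, and Gdpd2, a phosphodiesterase, by 4.60 ± 0.89. Guca2b, which encodes uroguanylin, a peptide that stimulates fluid and salt secretion, averaged 1928 TPM against 103.7, a difference of 4.20 ± 0.72.

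Of the 10 genes furthest below the progenitors, 5 are known as genes of mitosis. Cdca3 averaged 7.29 TPM against 89.6, a log2 difference of -3.60 ± 0.76. The centromere histone gene Cenpa differed by -3.54 ± 1.51, the phosphatase gene Cdkn3 by -3.48 ± 1.25, the anaphase activator gene Cdc20 by -3.02 ± 1.45 and the cyclin gene Ccnb1 by -3.67 ± 1.32. The other 5 included potassium channel genes: Kcne3, a channel subunit of crypt cells, averaged 37.7 TPM against 240.6, a difference of -2.68 ± 0.65, and Kcnk1 differed by -2.75 ± 0.88. Chchd6 (-2.66 ± 0.85), Cmtm7 (-4.25 ± 1.55) and Fam129b (-3.21 ± 1.39) completed the list.

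**Figure D2:**
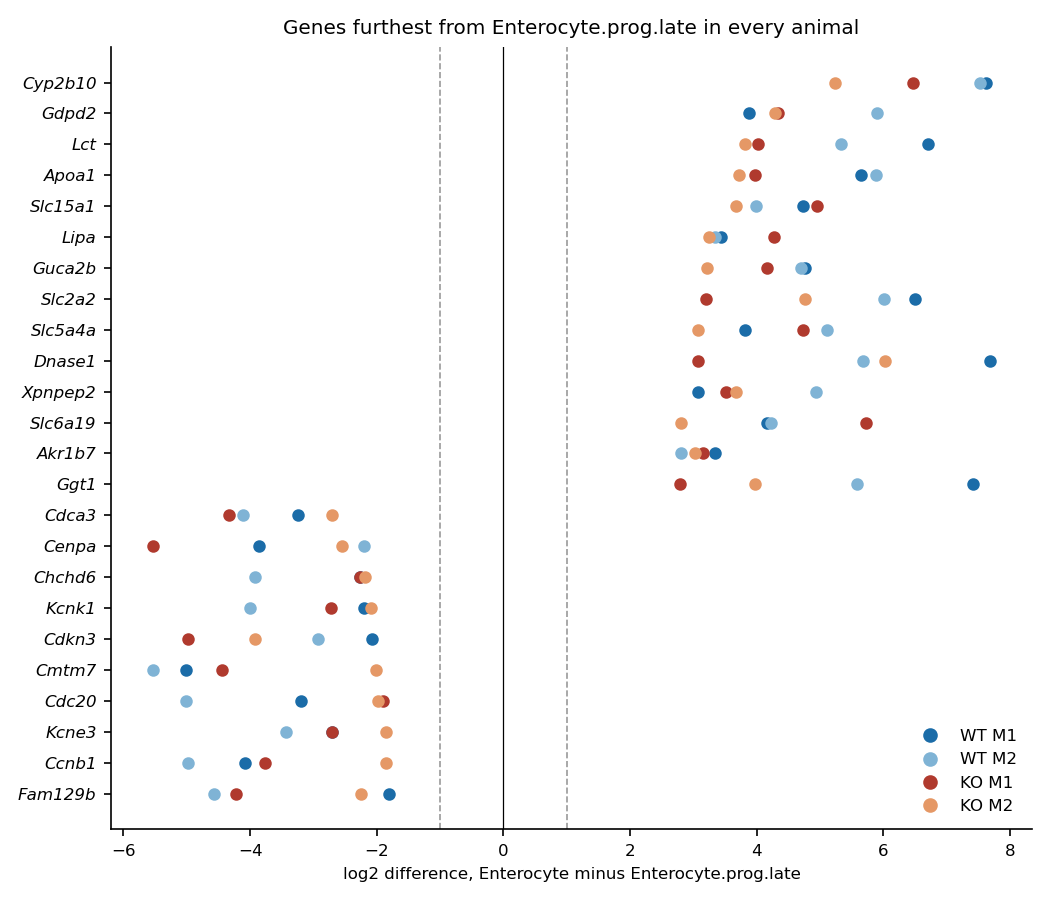
Log2 difference between Enterocyte and Enterocyte.prog.late (horizontal axis) for the 14 genes highest and the 10 genes lowest in every animal; each point is 1 animal. All points of Cyp2b10 lie between 5.23 and 7.63, and all points of Cdca3 between -4.34 and -2.71.

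Taken by function, the lists written for this cell type differed unequally from the progenitors, and their medians are set beside a median of -0.13 over all 6071 genes. Brush border hydrolases had the highest median, 2.35, and 12 of 17 kept members were at least 2-fold higher in every animal. Anpep, aminopeptidase N, averaged 1469 TPM against 278.4, Mep1b, a meprin protease subunit, 896.1 against 200.3, and Sis, sucrase-isomaltase, 537.5 against 184.2. Naaladl1 (0.99 ± 0.83) and the intestinal alkaline phosphatase gene Alpi (0.97 ± 0.50) were not 2-fold apart in every animal.

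Nutrient transporters had a median of 1.57, with 5 of 16 members 2-fold higher in every animal: Slc5a1, the sodium-glucose cotransporter SGLT1, at 687.4 TPM against 188.3, and Slc2a2, Slc15a1, Slc6a19 and Slc43a2. Slc7a9, Slc3a2 and Slc7a7, amino acid exchanger subunits, were higher by 0.80 ± 0.33, 0.90 ± 0.16 and 1.18 ± 0.42, below 2-fold in at least 1 animal.

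Lipid genes showed a like split between uptake and packaging on one side and oxidation on the other. In the list of apolipoproteins and chylomicron assembly all 18 members were higher on average, with a median of 1.003, and 7 passed the 2-fold rule: Apoa1, Apoc3, Apoa4 (3.26 ± 0.97), Apoc2 (3.70 ± 1.60), Apob (2.12 ± 0.51), Dgat2, a triglyceride synthase (1.68 ± 0.17), and Mttp, the lipid transfer protein that loads ApoB (1.30 ± 0.20). In fatty acid uptake and binding, 5 of 11 passed and the median was 1.39; Fabp2, the intestinal fatty acid binding protein, averaged 6183 TPM against 965.5, and Acsl5, an acyl-CoA synthetase, 689.6 against 227.04, with a difference of 1.60 ± 0.06. In fatty acid oxidation and ketogenesis the median was 0.15 and 1 of 17 passed, whereas the mitochondrial genes Hadh (0.30 ± 0.13) and Hadhb (0.06 ± 0.06) did not.

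In xenobiotic metabolism and efflux, 8 of 23 members passed and the median was 1.14. The glutathione transferase gene Gstm3 averaged 1634 TPM against 446.2, and the carboxylesterase gene Ces2e 1901 against 1045, the latter below 2-fold. In retinoid handling, 2 of 5 passed, namely Rbp2, the cellular retinol binding protein of the gut (4001 against 790.1 TPM, 2.39 ± 0.47), and Aldh1a1, a retinaldehyde dehydrogenase (2.91 ± 0.89). Microvillus structure had a median of 1.03 with 4 of 20 passing: Pls1 (1.80 ± 0.50), Cdhr2 (1.46 ± 0.30), Myo7b (1.41 ± 0.18) and Espn (3.97 ± 2.15), genes of actin bundling, of the links between microvilli and of their motor. Villin, Vil1, was higher by 1.17 ± 0.28, while the keratins Krt8 (-0.32 ± 0.17) and Krt19 (-0.43 ± 0.06) were lower than in progenitors. In bile acid handling 1 of 5 passed, the basolateral exporter subunit gene Slc51b (1.65 ± 0.33).

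Transcription factors of the absorptive lineage differed little, with a median of -0.05 and 1 of 19 passing. That gene was Creb3l3, a factor that controls lipid genes, at 190.1 TPM against 57.3 (1.99 ± 0.91), while Hnf4g (0.48 ± 0.20), Klf5 (-0.55 ± 0.20) and Elf3 (-0.52 ± 0.12) stayed within 2-fold. Of 13 kept antimicrobial and alarm genes, Reg1 (2.53 ± 1.24), Reg3a (2.46 ± 0.45) and Gsdmd, the pore-forming gasdermin D (1.95 ± 0.32), passed upward and Duoxa2, the maturation factor of a hydrogen peroxide-producing oxidase, downward (-2.22 ± 0.42). The most abundant members of that list hardly differed: Reg3b averaged 10369 TPM against 5867 (0.81 ± 0.54), and Lypd8, a protein that keeps bacteria from the epithelium, 7639 against 6695 (0.19 ± 0.07).

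Several lists of general cell functions held no member 2-fold apart in every animal, with medians on both sides of that of all genes. Oxidative phosphorylation had a median of -0.08 with 0 of 42 members passing, ribosomal proteins -0.56 with 0 of 42, iron and metal handling 0.24 with 0 of 9, MHC class II 0.36 with 0 of 7, autophagy core 0.26 with 0 of 22, and unfolded protein response 0.02 with 0 of 17. Of the ribosomal protein genes, 41 of 42 had a negative mean difference; Rps2, for example, averaged 3071 TPM against 4701. Among 23 lysosome genes, Lipa alone passed. The proliferation list had a median of -2.26, and 5 of 11 members passed downward (Stmn1, Ccnb2, Hmgb2, Cdc20 and Ccnb1).

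**Figure D3:**
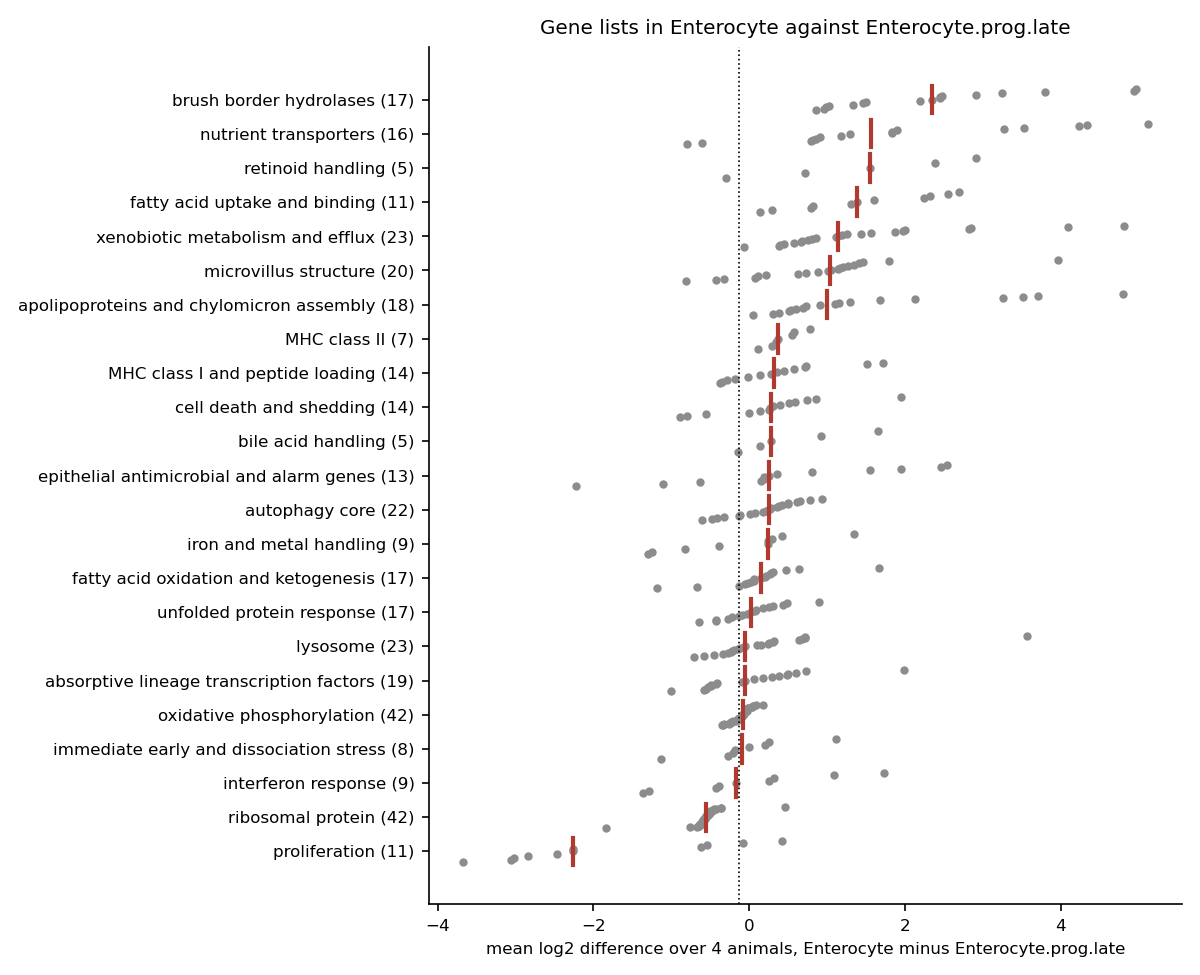
Mean log2 difference over 4 animals between Enterocyte and Enterocyte.prog.late (horizontal axis) for the members of each gene list; grey points are genes, the red bar is the median of the list and the dotted line the median of all genes, -0.13. Brush border hydrolases have a median of 2.35 and proliferation genes one of -2.26.

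Against all 8 other types at once, 2.78% of 5854 kept genes were at least 2-fold above the next highest type, with every Enterocyte animal above all animals of the 5 types that had 10 or more cells in each. Enterocyte.prog.late was the next highest type for 69.3% of these genes, Enteroendocrine for 26, Tuft for 11 and Enterocyte.prog.early for 5. The widest gap was that of Cyp2b10, at a mean of 140.7 TPM over all Enterocyte cells and 1.53 TPM or less in each other type, a gap of 5.81 log2 units. Dnase1 followed with 203.3 TPM and a gap of 5.55, the next type being Stem at 3.24 TPM. Slc2a2 (gap 5.12), Ggt1 (4.94), Apoa1 (4.80), the citrate and succinate carrier gene Slc13a2 (4.60), Gdpd2 (4.54), Slc5a4a (4.18), Cyp3a25 (4.10) and the glucose-6-phosphatase gene G6pc (3.87) came next. The markers Apoc3 (3.52) and Fabp1 (2.32) were in the same set, as was Reg1 (2.53), which averaged 2790 TPM in Enterocyte, 318.7 in Enterocyte.prog.late, 98.2 in Enterocyte.prog.early and 14.4 or less in the 6 further types.

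The RefSeq table was used with a chromosome left out, whose genes count here as lacking a promoter. Promoters were found in it for 77.3% of the genes above all other types and for 4430 of the 5854 kept genes (75.7%). In the 250 bases before the start, a TATA box was found in 37 genes of the set (29.4% of those with a promoter). The shares were 8.49% of kept genes with a promoter and 14.3% of the 27025 genes used from the table. A CDX site was found in 26 (20.6%, against 7.99% and 11.3%), an HNF1 half-site in 17 (13.5%, against 5.40% and 7.49%) and an HNF4 site in 8 (6.35%, against 1.76% and 1.40%). All 4 motifs were thus more frequent in the set than in either background, which is given with no test, and the CDX and TATA letters can overlap as they do in Reg3g.

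Enterocyte cells differed widely among themselves in the genes of fat absorption. Apoa1 was above 0 in all 58 cells, with 13.98 TPM in the lowest and 62730 in the highest. Within an animal the cell medians were 1493, 2265.5, 2209 and 2874 TPM, far below the means given above. The 8 combinations of animal and run ranged from a mean of 1592 TPM (WT M2, run 2, 5 cells) to 17899 (WT M2, run 1, 6 cells), so the cells named WT M2 spanned the whole range. Fabp1 ranged from 0 to 27092 TPM over cells, Reg3g from 0 to 57135, and Reg1, above 0 in 38 of 58 cells, from 0 to 43859.

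Cells with more Apoa1 also had more of other absorptive genes. Over the 58 cells, Spearman's rho with Apoa1 was 0.82 for Acsl5, 0.81 for Gpt, an alanine aminotransferase, 0.80 for Exoc3l4, 0.77 for Slc5a1, for Lct and for the peptidase gene Ace, 0.75 for Fabp2 and 0.73 for Mttp. These values are descriptions with no p, since the cells share animals, runs and, through TPM, a fixed total. The rho with Slc5a1 was 0.69 in run 1, 0.80 in run 2 and 0.66 to 0.85 within single animals, and that with Lct was 0.73, 0.76 and 0.67 to 0.81. Fabp1 had a rho of 0.61 with Apoa1 and of 0.76 with Creb3l3.

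The opposite end held several ribosomal protein genes and the keratin gene Krt19: rho with Apoa1 was -0.76 for Rpl5, -0.76 for Krt19, -0.73 for Rps3 and Rps3a1, -0.71 for Rpl15 and for the galectin gene Lgals2, and -0.70 for the inflammasome adaptor gene Pycard. Keratins were not of one sign, since Krt20 had a rho of 0.64 with Apoa1. The rho of Rpl5 was negative within each animal, from -0.87 to -0.48. Of 5800 genes, 2.34% had a rho of at least 0.5 with Apoa1 and 2.47% a rho of -0.5 or less, around a median of -0.04. The rho of Apoa1 with the number of genes above 0 TPM was -0.15 and with Rn45s -0.20. Among Reg genes, rho with Apoa1 was -0.08 for Reg3g, -0.05 for Reg3b, 0.09 for Reg1 and 0.30 for Reg3a (0.05 to 0.45 within animals), while Reg3b and Reg3g had a rho of 0.59 with each other.

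**Figure D4:**
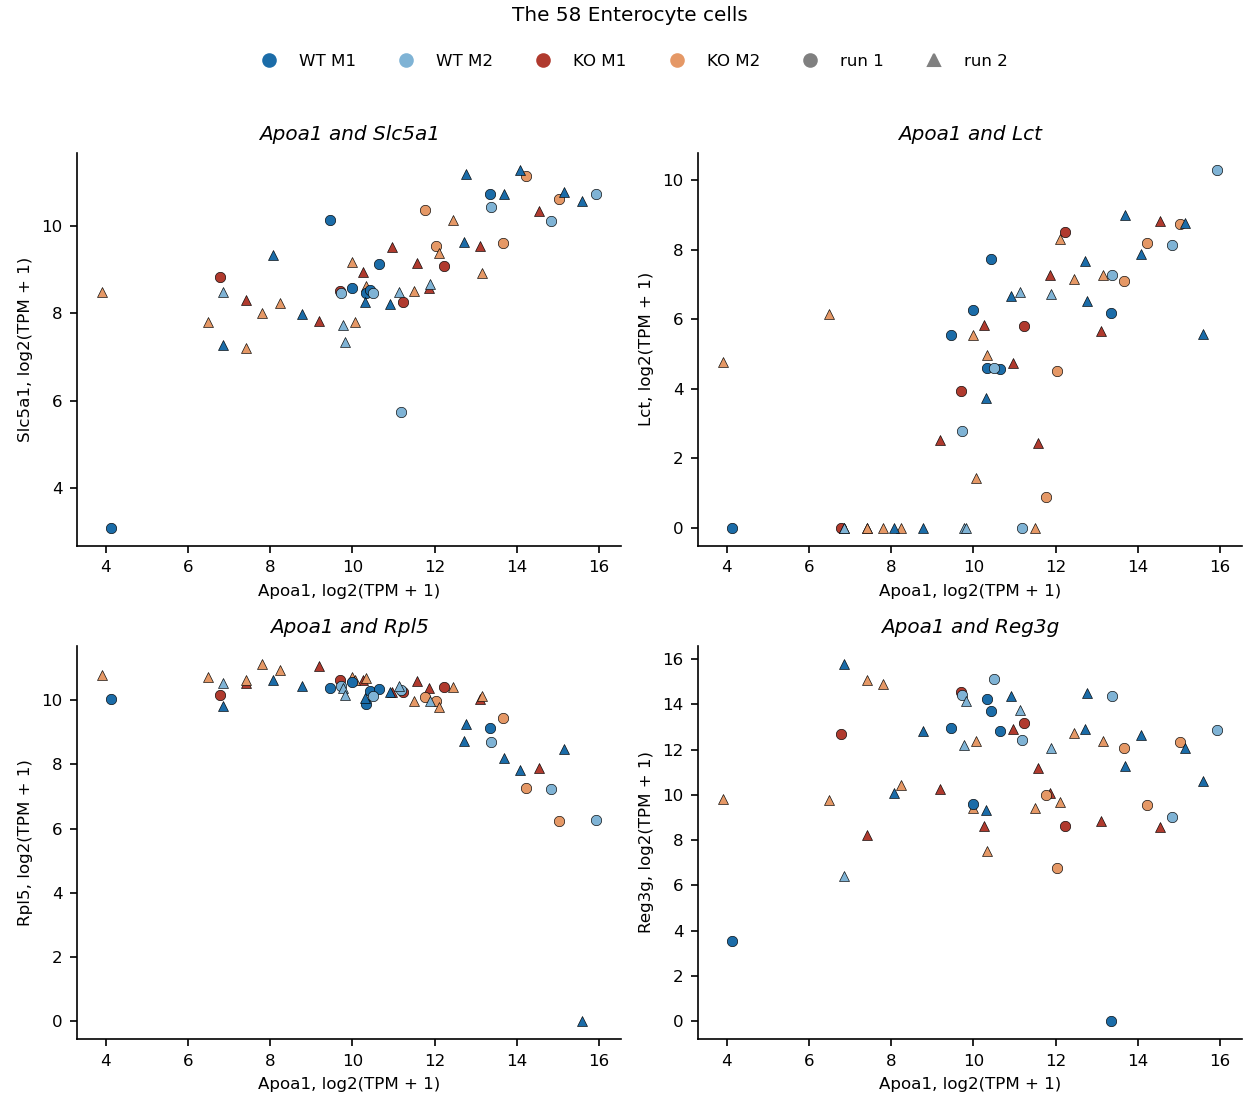
Slc5a1, Lct, Rpl5 and Reg3g (vertical axes) against Apoa1 (horizontal axes) in the 58 Enterocyte cells, all as log2(TPM + 1); circles are run 1, triangles run 2 and colours the 4 animals. Slc5a1 and Lct are higher where Apoa1 is higher (rho 0.77 for both), Rpl5 is lower (-0.76) and Reg3g shows no trend (-0.08).

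Villus position was examined with lists of genes known to mark the tip, middle and bottom of the mouse villus. Several tip markers were rare: Ada, adenosine deaminase, was above 0 in 13 of 58 cells, Klf4 in 14, and Nt5e, Slc28a2 and Enpp3 in 3 each, whereas Apoa4 and Krt20 were above 0 in all 58. Bottom markers were abundant: Reg3b, Reg3g, Lypd8, Il18 and Ccl25 were each above 0 in 55 or more cells. Over cells, the mean of the tip list had a rho of 0.00323 with the mean of the bottom list, -0.10 in run 1 and 0.10 in run 2, and within animals it was -0.02 in WT M1, 0.15 in WT M2, 0.47 in KO M1 and -0.20 in KO M2. The 2 list means thus had no opposed order over all cells. Cells picked by high Apoa4, itself a tip list gene, were not alike in the bottom list. The WT M1 cell with the most Apoa4 (8493 TPM) had a tip mean of 5.39, a bottom mean of 4.48 and Lypd8 at 0. That cell also had the fewest genes above 0 TPM of all Enterocyte cells (3662), with Rpl5 and Krt19 at 0. In WT M2, the cells with 5827 and 5005 TPM of Apoa4 also had Lypd8 at 0. Their bottom means were 5.77 and 8.08, against an average of 9.35 in that animal. By contrast, a KO M2 cell with 4380 TPM of Apoa4 had a bottom mean of 9.98 and 11715 TPM of Lypd8. A KO M1 cell with 3609 TPM of Apoa4 had a bottom mean of 10.70 and 7739 TPM of Lypd8. Tip and middle lists, by contrast, went together, with a rho of 0.70 (0.46 to 0.76 within animals).

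The genes that followed the tip score minus the bottom score included, outside the lists and Gm and Rik symbols, Cdhr5, a protocadherin of the links between microvilli (rho 0.46), the MHC class I genes H2-K1 (0.46), H2-Q2 (0.44) and H2-D1 (0.44), and AA467197, Tspan3, Fbln1, Net1, Glrx and Abt1 (0.43 to 0.45). Lowest were Pycrl (-0.57), then Emc2, Mrrf, Naip1, Ccng1 and Tmsb4x (all -0.45), Lsmd1, Rps3a1, Arrdc1 and the bile acid receptor gene Nr1h4 (-0.41). None of 5800 genes reached 0.5 and 1 was at -0.5 or below, and Cdhr5 ranged from -0.06 to 0.66 between animals.

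Markers of the intestinal segments were mixed. The summed level of 6 proximal markers averaged 224.6, 237.2, 184.6 and 189.5 TPM, and that of 7 distal markers 1155.3, 777.3, 1062.4 and 912.0. Gata4, a factor of the proximal small intestine, was above 0 in 55 of 58 cells, and the distal genes Osr2 and Slc51b in 50 and 51. The colon markers Car1 and Hoxb13 were at 0 in all 58 cells, and Aqp8 and Aqp4 were above 0 in 4 cells each. Fabp6, the ileal bile acid binding protein, was above 1000 TPM in 4 cells (2 of WT M1, 1 of KO M1 and 1 of KO M2), with 2190 to 6492 TPM, and at most 83.04 TPM in the other 54. Those 4 cells had a median of 133.6 TPM of Fabp1 against 3208 in the other 54, of 27003 against 3390 TPM of Reg3g, and of 22.9 against 70.3 TPM of Gata4. The 4 cells were unlike one another, with Fabp1 from 0 to 2206 TPM and Apoa1 from 115.2 to 17213. The KO M1 cell, highest in Fabp6, also held 6687 TPM of the Paneth marker Lyz1 and 177.8 TPM of Muc2. The 4 cells were picked by Fabp6, and no test was made.

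For the comparison of genotypes, the knocked-out gene comes first. No Enterocyte cell had Atg16l2 above 0 TPM, 0 of 29 WT and 0 of 29 KO Enterocyte cells, which allows a share of up to 10.3% in each for cells with a value above 0. This limits detection and not expression, and counts cells of 1 animal as independent, so the labels could not be checked within this type. Atg16l1 averaged 28.8, 10.2, 22.2 and 6.66 TPM, and its levels overlapped (log2 difference -0.45, SE 0.70, limma adjusted p = 0.916). Nnt, a gene that differs between C57BL/6 substrains, averaged 9.17, 11.7, 21.5 and 18.1 TPM (0.87, SE 0.50, limma adjusted p = 0.710).

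In KO Enterocyte cells, 2 genes passed the test and both were higher: Reg1 and the gene 2210407C18Rik. They are 0.0342% of 5854 genes tested with limma, 0% were called lower, and 482 genes had an unadjusted p under 0.05 where chance would give 292.7. Both KO animals lay above both WT animals for 16.3% of genes and below them for 21.6%. The median log2 difference of all genes was -0.04, and it was 0.12 when log values were averaged over cells in place of TPM. With 1 animal left out the number called was 31 without WT M1 (11 of them lower in KO), 5 without WT M2 (1 lower), 6 without KO M1 (1 lower) and 55 without KO M2 (31 lower), and it was 0 when the cell with the highest level was dropped, gene by gene, from each animal and type.

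Reg1 averaged 1018, 465.8, 5596 and 4189 TPM. Both KO animals were above both WT animals, with a log2 difference of 2.81 (SE 0.31, limma adjusted p = 0.0214). The cell medians were 0, 132.3, 936.7 and 585.8 TPM. Reg1 was above 0 in 8 of 18, 9 of 11, 11 of 12 and 10 of 17 cells, a larger share in WT M2 than in KO M2. The highest cells held 4348, 3069, 43859 and 27782 TPM, and 20 cells exceeded 1000 TPM (5, 1, 6 and 8 in the order above). The order of the genotypes was the same in run 1 (627.4, 263.03, 3264 and 6658 TPM) and in run 2 (1267, 709.2, 6762 and 3159). The difference lay between 2.25 and 3.52 under 19 alternative settings, and the call held in 12 of them; without the highest cells it was 2.54. The Paneth marker sum, given above, was higher in both KO animals too. With the 2 cells above 1000 TPM of Muc2 or Lyz1 left out, Reg1 differed by 2.91 (limma adjusted p = 0.00713) and 10 genes were called. Most of the 5 cells that summed above 1000 TPM for the Paneth list stayed in. Reg1 averaged 3.92 TPM in cells annotated as Paneth, 4.80 in Stem, 14.4 in Goblet and 318.7 in Enterocyte.prog.late. Whether RNA of other types has a part in the difference of Reg1 was not tested.

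The gene 2210407C18Rik, of unknown function and named here after its values were seen, averaged 410.5, 419.5, 1272 and 1407 TPM (log2 difference 1.69, SE 0.17, limma adjusted p = 0.0172). The animals did not overlap, but the runs differed: 158.1, 129.6, 1407 and 3736 TPM in run 1, and 571.0, 767.4, 1204 and 436.2 in run 2, where WT M2 was above KO M2. Its difference was 3.99 in run 1 and 0.13 in run 2. It was not confined to enterocytes, with a mean of 664.4 TPM in Stem cells.

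Ces2a, Ces1f, Papss2 and Adh1 had higher values in KO in both runs and did not pass the test. Ces2a, a carboxylesterase, averaged 280.7, 215.6, 670.5 and 662.4 TPM (log2 difference 1.43, limma adjusted p = 0.061), with 292.1, 224.9, 1076 and 586.7 in run 1 and 273.3, 204.5, 467.7 and 694.0 in run 2. Ces1f, another carboxylesterase, averaged 123.8, 109.2, 427.5 and 295.9 TPM (1.60, adjusted p = 0.085). Papss2, which makes the sulphate donor of sulphation, averaged 111.4, 97.7, 303.1 and 335.6 TPM (1.60, adjusted p = 0.061), and Adh1, an alcohol dehydrogenase, 463.4, 485.4, 1382 and 957.3 (1.28, adjusted p = 0.095). Papss2 and Adh1 were chosen after their values were seen. For these 4 genes the KO animals lay above the WT animals in each run. Over the whole xenobiotic list, 16 of 23 members had a positive and 7 a negative difference and 0 were called, with a median of 0.38 (0.88 in run 1 and 0.26 in run 2).

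The genes with the smallest p among those lower in KO did not pass the test either. Lap3, a leucine aminopeptidase, averaged 574.9, 613.4, 227.7 and 237.8 TPM (log2 difference -1.35, SE 0.19, limma adjusted p = 0.061). The means of the WT and KO animals were apart by more than the spread within a genotype. The cell medians, however, were 520.9, 232.4, 189.3 and 206.4 TPM, which put WT M2 close to the KO animals. The highest cells held 1691, 2269, 622.6 and 621.8 TPM. The genotypes overlapped in each run. In run 1 WT M1 (377.9 TPM) was below KO M2 (394.4), and in run 2 WT M2 (225.1 TPM) was below KO M1 (234.2). Reg3g averaged 10138, 12093, 4502 and 5847 TPM (-1.11, SE 0.17, adjusted p = 0.074), with cell medians of 6850, 7519, 1161 and 1013. In run 1 KO M1, at 10016 TPM, lay between WT M1 (7019) and WT M2 (15345). Reg1 and Reg3g, 2 lectins of 1 family, thus had differences of opposite sign.

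The remaining ones were Igsf9 (145.2, 107.6, 30.4 and 34.6 TPM, -1.91, adjusted p = 0.091), Crip1 (4326, 5503, 2544 and 2453 TPM, -0.97, 0.095), Sepp1, the selenium carrier selenoprotein P (1625, 3081, 387.8 and 744.3 TPM, -2.06, 0.095), Spink3, a trypsin inhibitor (1168, 1767, 513.1 and 661.6 TPM, -1.30, 0.129), Slc13a2 (212.5, 141.6, 35.96 and 59.9 TPM, -1.88, 0.136) and Apoc3 (-1.82, 0.159). Having both KO animals below both WT animals was the condition for naming these 6, as for Lap3 and Reg3g, and is not a result. For Apoc3 the means rested on few cells: the cell medians were 123.1, 248.1, 293.98 and 228.4 TPM, the highest WT cell held 13802, and with log values averaged over cells the difference was 0.16. Sepp1 in WT likewise ranged from 126.7 TPM (WT M2, run 2) to 5544 (WT M2, run 1).

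**Figure D5:**
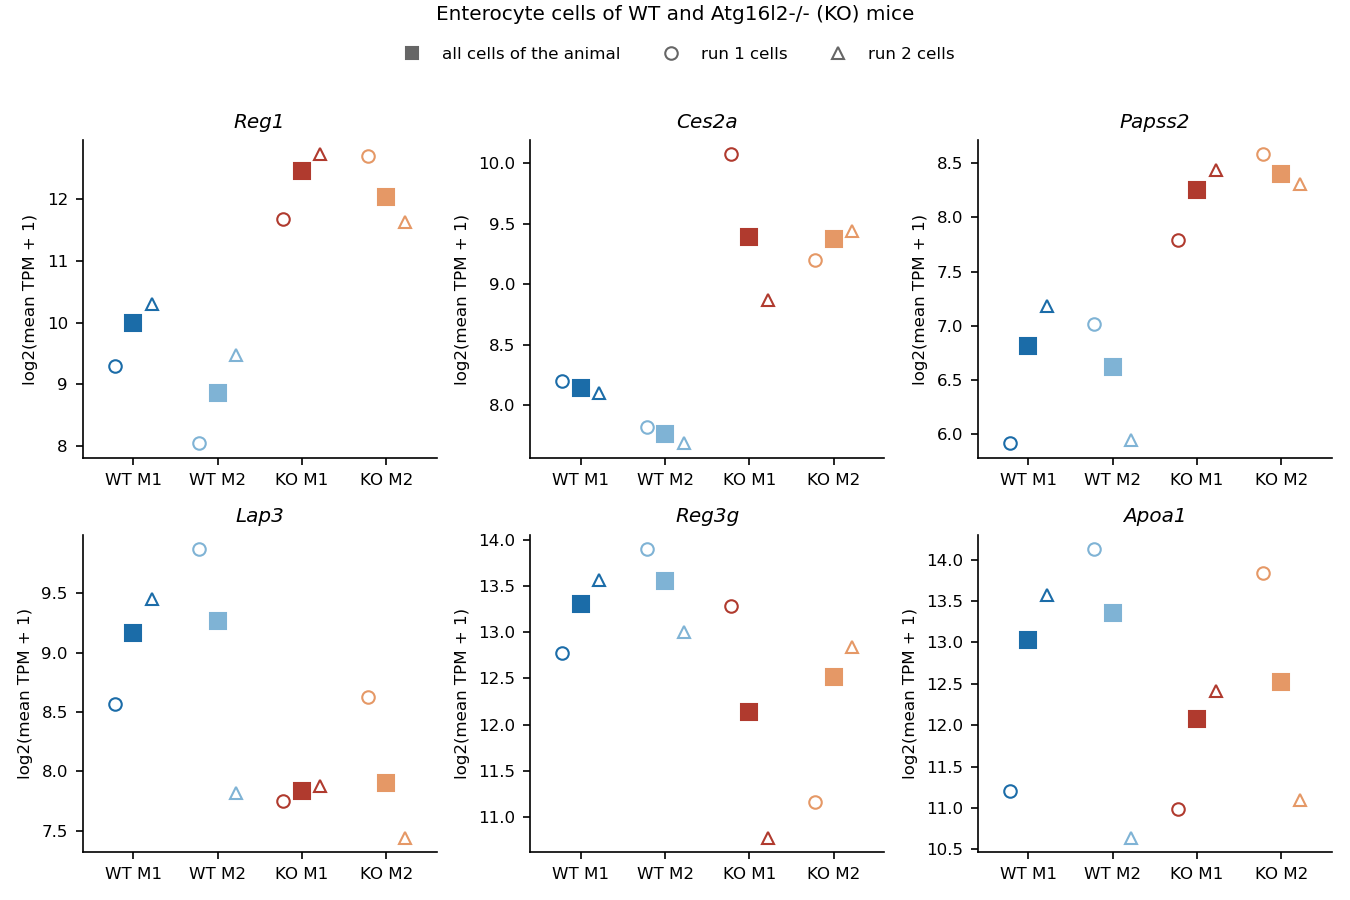
Level of Reg1, Ces2a, Papss2, Lap3, Reg3g and Apoa1 in Enterocyte cells, as log2 of the mean TPM plus 1, for the 4 animals; filled squares are all cells of an animal and open symbols its cells of run 1 and run 2. Reg1, Ces2a and Papss2 are higher in both KO animals in both runs, whereas the Apoa1 means of WT M2 are 17899 TPM in run 1 and 1592 TPM in run 2.

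Several absorptive lists were lower in KO by small amounts, others were not, and 0 of their members were called. Of 18 genes of chylomicron assembly, 17 had a negative difference and in 11 both KO animals were below both WT animals, where 21.6% of all genes had both KO animals below and 46.6% had a positive difference, with a median of -0.30 (-0.23 in run 1, -0.27 in run 2). Of 16 nutrient transporters 14 were negative, with a median of -0.33 (-0.20 in both runs). Brush border hydrolases (14 of 17 negative, median -0.47) and microvillus genes (19 of 20 negative, median -0.31) had medians of 0.23 and 0.09 in run 1, so their direction turned there. Fatty acid uptake and binding (8 of 11 negative, median -0.35) had medians of 0.39 in run 1 and -0.007 in run 2. In retinoid handling 4 of 6 members were positive (median 0.24) and in bile acid handling 3 of 5 (median 0.27). These lists hold too few members to be set apart from the 46.6% positive among all genes. Named members were Ggt1 (-1.12, limma adjusted p = 0.324), Naaladl1 (-1.07, 0.478), Slc15a1 (-0.96, 0.465), Pls1 (-0.90, 0.260), Espn (-1.03, 0.364) and Npc1l1, the cholesterol importer (-0.75, 0.384).

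Ribosomal protein genes were higher in 32 of 42 members, with a median of 0.11 that was -0.74 in run 1 and 0.62 in run 2. Autophagy core genes had a median of -0.17, with 13 of 22 negative and 0 called. Acaa2, a thiolase of fatty acid oxidation, averaged 383.9, 404.4, 760.9 and 572.6 TPM (0.74, limma adjusted p = 0.334). Osr2, a distal marker, averaged 148.4, 139.5, 41.7 and 64.9 TPM (-1.45, adjusted p = 0.206). Whether a different mix of segments has a part in these differences was not tested.

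To ask whether a difference was larger in Enterocyte than elsewhere, the difference between genotypes in Enterocyte was compared, within animals, with the mean of that in Stem, TA (transit amplifying), Enterocyte.prog.early, Enterocyte.prog.late and Goblet cells. Of 5854 genes, 2 (0.0342%) were called higher, Reg1 and Ccl5, and 1 (0.0171%) lower, Lap3. Ccl5 met the level filter only through its KO cells, so its call was favoured by the filter and is given as a description. The difference of Reg1 was 2.33 log2 units larger in Enterocyte (SE 0.23, limma adjusted p = 0.0115). That of Lap3 was -1.42 (SE 0.18, adjusted p = 0.0484), and in Enterocyte.prog.late Lap3 averaged 153.03, 180.2, 163.4 and 184.6 TPM, with no gap between genotypes. In Enterocyte, the highest Lap3 was in a WT M1 cell (1691 TPM) and in WT M2 cells (2146 and 2269 TPM). The same cells held 11933, 13802 and 11871.5 TPM of Apoc3 and 49255, 29437 and 62730 TPM of Apoa1. The differences of Lap3, Apoc3 and Apoa1 are thus not independent of one another. With 1 animal left out, the share of genes called was 0.102% without WT M1, 0.237% without WT M2, 1.32% without KO M1 and 2.63% without KO M2, in place of 0.0512%.

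Ccl5, a chemokine of lymphocytes, had a difference of 4.48 from few cells. It averaged 1.46, 9.16, 59.2 and 37.2 TPM and was above 0 in 6 of 58 cells, 2 WT and 4 KO. The mean of KO M1 came from 1 cell with 710.6 TPM of Ccl5, which also held 111.4 TPM of Cd3g and 38.2 of Cd8a, genes of T cells. The highest cell of KO M2, with 335.6 TPM, had the most genes above 0 of all Enterocyte cells (10098), 2245 TPM of the goblet gene Muc2 and 24.4 of Cd3g. Without the highest cells the difference was 2.83 (adjusted p = 0.787).

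Against Enterocyte.prog.late alone, 1 gene (0.0171%) was called lower and 0% higher by limma, and 397 genes had an unadjusted p under 0.05. Apoa1 was 1.93 log2 units lower in KO relative to the progenitors (SE 0.14, limma adjusted p = 0.00208). Its levels in Enterocyte were 8339 and 10487 TPM in WT against 4303 and 5856 in KO, while those in Enterocyte.prog.late were 165.1 and 176.2 against 273.96 and 445.0. The step between the types was 5.65 and 5.89 log2 units in WT and 3.97 and 3.72 in KO. The cell medians of Apoa1 in Enterocyte were not lower in KO: they overlapped, at 1493 and 2265.5 TPM in WT against 2209 and 2874 in KO, and the highest cell held 49255 and 62730 TPM in the WT animals against 23831 and 33352 in the KO animals. With log values averaged over cells the step was smaller in KO by 1.19 (limma adjusted p = 0.09997, not called), and without the highest cells by 1.64 (adjusted p = 0.00275). The latter setting drops only 1 cell of each animal and type. Second cells of 36202 and 29437 TPM in the WT animals, against 8874 and 19292 in the KO animals, stayed in. It therefore cannot show whether the call rests on few cells. Within Enterocyte alone the difference of Apoa1 was -0.90 (adjusted p = 0.194). The step was smaller in KO by 1.31 in run 1 and 0.97 in run 2 without a call in either, the KO M1 progenitors were 10 cells, and with 1 animal left out 7 to 52 genes were called (9 without WT M1, 7 without WT M2, 29 without KO M1 and 52 without KO M2). In the other direction, genes were named only where the step was larger in both KO animals than in both WT animals. Of these, Reg1 was nearest to the threshold (2.06, limma adjusted p = 0.099). The glutathione transferase gene Gsta4, Chchd4, Ccl5, Apoo-ps, Muc2, Akr1c19 and Plek2 followed, with adjusted p from 0.395 to 0.516. Muc2 was at -0.61 without the highest cells.

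For Fabp1, as for Apoa1 and Apoc3, means and cell medians gave different orders of the animals. Its means overlapped between genotypes (log2 difference 0.72, SE 0.38, limma adjusted p = 0.666), whereas its cell medians were 987.5 and 1736 TPM in the WT animals and 4619 and 4145 in the KO animals. With log values averaged over cells the difference was 2.12 (adjusted p = 0.0677), above 1.5 times the main value and still short of the threshold.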

How the data were processed

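The authors deposited TPM values, a table of 23420 genes with a column per cell; per the submitters' processing notes, Bowtie, TopHat and RSEM were used, with versions and genome build not given in the sources used here. TPM keeps no depth, so no interval from read counts is given. Run, animal and type were read from the titles; no cell was removed and no doublet caller was run. For each animal and type, mean TPM over cells was taken as log2(TPM + 1). Genes were kept for the test of KO against WT where Enterocyte cells averaged 10 TPM or more and 10% or more of them were above 0 TPM.

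KO and WT animals (2 against 2, residual df 2) were compared with limma 3.58.1 (lmFit, eBayes with trend; R 4.3.3), with two-sided p-values adjusted by Benjamini-Hochberg across every kept gene and a threshold of 0.05. An exact permutation test of 2 against 2 animals cannot go below 0.333 and was not used. Differences against other types used within-animal differences. Comparisons between types and correlations over cells are descriptions with no test. The procedure was also run on simulated animals, whose cells were drawn from the pooled Enterocyte cells of all animals. Such animals differ only by the draw of cells, so the run cannot show how the test fares with real spread between animals.

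Named genes were the 14 highest and 10 lowest by within-animal difference from Enterocyte.prog.late, the 10 widest gaps to all types, the markers, and up to 4 members of each list by level. Also named were the called genes, up to 2 members of each list by p, and Atg16l2, Atg16l1 and Nnt. Where a direction held no call, the 8 with the smallest p were named among genes whose KO and WT animals did not overlap. Gm and Rik symbols were counted only. The values of a few named genes are not reported here. The members, lists and rule were chosen with earlier results of these data known. Alternatives were pseudocounts of 0.1 and 10, 0 or 50 TPM as the filter, log averaging, quantile normalization, eBayes without trend, single runs, 8 run and animal units, the highest cells or an animal left out, and a replicate block. Added after seeing the data were TPM rescaled without Rn45s and Gm20594, and cells above 1000 TPM of other types' markers or of Fabp6 left out.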

Additional observations from a re-analysis of the deposited data

Results flagged for a closer look

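For 4 genes the difference between genotypes in Enterocyte passed a test against that in other cell types (limma, within-animal differences, Benjamini-Hochberg adjustment), of which that of Ccl5 is given as a description. Against the mean of 5 other types, the difference of Reg1 was larger by 2.33 log2 units (SE 0.23, adjusted p = 0.0115, higher in 2 of 2 KO animals), and over 19 alternatives it ranged from 1.59 to 3.09 and stayed called in 9. That of Ccl5 was larger by 4.48, but Ccl5 met the level filter only through its KO cells (6 of 58 cells above 0, 2 of them WT), so the filter favoured its call. With the 2 cells above 1000 TPM of Muc2 or Lyz1 left out, Ccl5 was above 0 in too few cells to be tested. That of Lap3 was lower by -1.42 (SE 0.18, adjusted p = 0.0484), ranged from -1.50 to -0.87 and stayed called in 6 of 19. The cell medians of Lap3 in Enterocyte were 520.9 and 232.4 TPM in WT against 189.3 and 206.4 in KO. Its highest WT cells, given above, were also high in Apoa1. Against Enterocyte.prog.late, that of Apoa1 was lower by -1.93 (SE 0.14, adjusted p = 0.00208, lower in 2 of 2 KO animals), ranged from -2.05 to -0.97 and stayed called in 13 of 19; the cell medians of Apoa1 in Enterocyte were 1493 and 2265.5 TPM in WT against 2209 and 2874 in KO, so they overlapped and were not lower in KO. All 4 kept their direction under each alternative that gave a value. With 2 animals per genotype, a single animal far from its group could not be looked for.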

How the results depend on the processing

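Each call rests on 2 animals per genotype and on 11 to 18 cells per animal, TPM hides depth, and the mean over cells follows a few high cells. All shares here are percents of the genes tested. Genes called between KO and WT were 0.0342% within Enterocyte, 0.0512% against 5 other types and 0.0171% against Enterocyte.prog.late (2, 3 and 1 genes). A pseudocount of 10 TPM gave 0.0854%, 0.222% and 0.0512%. No filter, log averaging, eBayes without trend, run 2 alone and the 8 run and animal units each gave 0, 0 and 0; in those settings Reg1 kept its direction, with a limma adjusted p of up to 0.837 within Enterocyte and 0.866 against 5 types. Run 1 alone gave 0.0168% (1 gene, lower) within Enterocyte and 0 against 5 types. A filter of 50 TPM gave 0.341% within Enterocyte and 0 against 5 types, quantile normalization 0.154% within Enterocyte, and a pseudocount of 0.1 TPM 0 against 5 types. Without the highest cells the shares were 0 within Enterocyte and 0.0683% against Enterocyte.prog.late. Of the alternatives chosen after seeing the data, rescaled TPM gave 0.142% and 0.0787% in the first 2 comparisons, leaving out cells with other types' markers gave 0.172%, 0.0172% and 0.0688%, and leaving out Fabp6 cells gave 0 against 5 types. Leaving out each animal, which assumes that the lone animal varies like the other group, gave 0.0848% to 0.938%, 0.102% to 2.63% and 0.119% to 0.887%. The replicate block gave 0.444%, 0.1196% and 0.102% (26, 7 and 6 genes, 12 of the 26 lower). No label says whether same-numbered animals of the genotypes were paired. Their deviations correlated at -0.06, -0.01 and -0.04 across genes, which cannot decide it, since the means rest on few cells.

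Genes 2-fold apart from Enterocyte.prog.late were 3.06% of those kept, 1.84% with a pseudocount of 10 TPM, 3.52% with a filter of 50 TPM (85 genes, 73 higher and 12 lower) and 3.66% to 5.15% without an animal. Genes above all types were 2.78%, 4.29% with log averaging, 1.80% in run 1 and 2.75% to 3.73% without an animal. The rho of tip and bottom lists stayed within the spread of the animals. Of 756 values of named genes between KO and WT under an alternative, 79 passed the threshold only there, 52 passed it no longer and 6 turned sign: Apoc3 (0.16) and Apoa4 (0.14) with log averaging, Apoa4 in run 2 (0.60) and in the 8 units (0.20), Fabp2 in run 1 (0.39), all within Enterocyte, and Muc2 against Enterocyte.prog.late without the highest cells (-0.61). Causes were not tested, except that stricter filters test fewer genes.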

Other observations

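Other gene groups gave values that belong to no call. Against the 5 other types, the difference between genotypes in Enterocyte was positive for 41 of 42 oxidative phosphorylation genes (median 0.23, 0.06 in run 1 and 0.29 in run 2) and for 41 of 42 ribosomal protein genes (median 0.40, -0.18 in run 1 and 0.63 in run 2), while the median of all 5854 genes was -0.04 and 0 members of either list were called. Within Enterocyte itself, 36 of 42 oxidative phosphorylation genes were lower in KO (median -0.15, -0.71 in run 1 and 0.26 in run 2). Within Enterocyte, the cell death and shedding list had 10 of 13 members lower in KO, with a median of -0.41 (-0.31 and -0.37 in the runs). Its members with the smallest p were Bcl2l15, a relative of the Bcl2 apoptosis regulators, at 254.3 and 281.04 TPM in WT against 83.6 and 150.1 in KO (limma adjusted p = 0.269), and Cdkn1a, the cell cycle inhibitor p21, at 182.98 and 134.8 against 99.7 and 98.9 TPM (adjusted p = 0.528). Of 14 MHC class I and peptide loading genes, 12 were lower in KO with a median of -0.18, which was 0.11 in run 1. B2m, the class I light chain, averaged 2511 and 2714 TPM in WT against 1814 and 1923 in KO (adjusted p = 0.398). MHC class II genes were higher in 5 of 7 members with a median of 0.46, which was -0.10 with log values averaged over cells. Guca2a, which encodes guanylin and was chosen after its values were seen, had a log2 difference of -1.75 (adjusted p = 0.2803), -0.09 in run 1 and -2.99 in run 2.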
